A study of Homo sapiens with 3 samples.

Results

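The thin filament of the cardiac sarcomere is a helical actin cable with a tropomyosin strand along it and a troponin complex bound at regular intervals. Calcium binding to troponin C moves troponin I and troponin T, tropomyosin shifts on the actin, and myosin heads can attach. Tropomodulin caps the pointed end of the filament and leiomodin acts at the same end to lengthen it, and inherited variants in several of these genes cause cardiomyopathy. The promoter contacts of 10 genes of this structure were described: the troponin subunit genes TNNT2, TNNI1, TNNI3 and TNNC1, the tropomyosin genes TPM1 and TPM2, the actin genes ACTC1 and ACTA1, and the pointed-end genes TMOD1 and LMOD2. A promoter fragment was a HindIII fragment listed on the promoter side (column 1) of a contact in any replicate. That of a gene held an annotated transcript start of the gene. The list of captured fragments is not known here, so a captured fragment without such a contact is not counted. Of the 10 genes, 9 had such a fragment, 1 each, out of 19075 promoter fragments in the calls. ACTA1 had none.

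Promoter capture Hi-C (PCHi-C), which ligates DNA ends that lie close together in the nucleus and enriches the products for promoters, was applied to hESC-CMs in 3 biological replicates. These are cardiomyocytes made from WA09 (H9), a human embryonic stem cell line, with a commercial differentiation kit, enriched in a medium with lactate in place of glucose and fixed with formaldehyde. They carried no engineered allele, all came from 1 cell line and 1 condition, and their purity was checked by the submitters with MYH7 and TNNT2 as markers, so no group comparison was possible and the values below are levels with their spread over replicates. The files hold contacts of DNA and no expression, so the cell type could not be checked against its markers here.

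Every contact joins HindIII fragments and carries a CHiCAGO score, which measures the excess of read pairs over a background that depends on distance and technical noise. The lowest score listed was 5, so a pair missing from a replicate scored below that and is not shown to be absent. The files hold no read counts, so the depth of each replicate is unknown here. Replicates held between 109731 and 112473 contacts of all promoters, with a union of 200587.

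The 9 promoter fragments were placed on GRCh37 as follows. That of TNNT2 spanned chr1:201344848-201355708 and held 14 of its 29 annotated starts, together with starts of a LAD1 transcript. That of TNNI1 spanned chr1:201387253-201402709, that of TNNI3 chr19:55663151-55681954 and that of TNNC1 chr3:52479538-52492604, and each held every annotated start of its gene. DNAAF3, a dynein assembly factor gene, also starts on the TNNI3 fragment, and NISCH on the TNNC1 fragment, so contacts of these neighbours cannot be told apart. The TPM2 fragment was chr9:35687984-35692015 with 6 of 10 starts, the ACTC1 fragment chr15:35080552-35095671 with all 6 starts of the gene and a start of the transcript GJD2-DT, and the LMOD2 fragment chr7:123291920-123301885 with both of its starts.

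For TPM1 and TMOD1 the promoter fragment missed the main start of the gene. The TPM1 fragment, chr15:63332656-63334858, held 3 of 39 annotated starts, and the canonical start lay 88 bp past its end. The TMOD1 fragment, chr9:100263198-100263482, was only 285 bp long and held 1 of 3 starts, with the canonical start 466 bp past its end. The HindIII sites that set these ends are shown with 12 flanking bases on each side, on the plus strand of GRCh37 and with the recognition site in capitals.
TPM1, chr15:63334846-63334875: ggcaggagaaaaAAGCTTttccaaaaaagt
TMOD1, chr9:100263470-100263499: cgatcgcggttaAAGCTTgcggctcagagc

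The promoters of both sarcomeric actin genes and of TNNT2 are shown because they carry the letters of known muscle promoter elements. Each is given in the direction of transcription, from GRCh37, and cut back where more than a short stretch of annotated exons would be shown. Some exon bases can therefore remain. Capitals mark a CArG box, the site of serum response factor, the M-CAT element, which TEAD factors bind, on either strand, and the TATA box.
ACTC1, chr15:35087761-35088000, minus strand: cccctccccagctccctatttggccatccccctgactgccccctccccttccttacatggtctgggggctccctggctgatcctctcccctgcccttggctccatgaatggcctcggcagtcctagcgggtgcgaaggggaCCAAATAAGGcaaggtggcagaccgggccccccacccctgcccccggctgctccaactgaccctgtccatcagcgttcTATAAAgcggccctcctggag
ACTA1, chr1:229569842-229570091, minus strand: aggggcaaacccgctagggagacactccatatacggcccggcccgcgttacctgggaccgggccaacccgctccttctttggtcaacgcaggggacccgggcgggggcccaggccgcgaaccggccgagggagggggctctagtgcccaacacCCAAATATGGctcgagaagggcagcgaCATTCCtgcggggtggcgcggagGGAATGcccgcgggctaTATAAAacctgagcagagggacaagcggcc
TNNT2, chr1:201346863-201347058, minus strand: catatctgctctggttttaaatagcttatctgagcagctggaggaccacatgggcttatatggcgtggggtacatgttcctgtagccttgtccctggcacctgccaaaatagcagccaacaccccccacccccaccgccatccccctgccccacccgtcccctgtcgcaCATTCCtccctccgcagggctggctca

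In windows of 300 bases around the canonical start (250 before to 50 after), searched on both strands, a CArG box was found in 2 of the 10 genes, ACTC1 and ACTA1, and in 1.20% of 19862 promoters. The TATA box, spelled TATAAA, was found in the same pair, and in 9.63% of promoters. In ACTC1 the CArG box began at position -109 and the TATA box at -31 from the start, and in ACTA1 they began at -97 and -30. M-CAT, spelled CATTCC, was found in 4 of 10, TNNT2, TNNC1, TPM1 and ACTA1, against 11.3% of promoters, and the MEF2 motif in none of the 10 against 2.01%. None of these motifs overlapped another in the printed sequences. A match is a description of letters only.

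The 9 promoter fragments had 157 contacts in the union, 104 in replicate 1, 113 in replicate 2 and 101 in replicate 3 (106 ± 6.24, SD, n = 3). All 3 replicates called 64 of them (40.8%, 95% Wilson interval 33.4 to 48.6%, counting error only). Over all promoter fragments 24.0% of contacts were called in all 3 replicates. Contacts called in all 3 replicates, and their partner fragments, are named stable in what follows. Another 33 contacts were seen in 2 replicates and 60 in 1. The higher share rested on TPM1 and ACTC1, which had 34 and 37 of the 157 contacts. Without both, 23.3% of the remaining 86 contacts were called in all 3 replicates, which is near the background.

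At least 1 contact called in all 3 replicates was found for 7 of the 9 fragments, TPM2 and LMOD2 being the exceptions. Among all promoter fragments 51.9% had one. Contacts of the thin filament genes spanned a median of 195 kb against 716 kb for all, and 145 (92.4%) lay within 1 Mb against 55.7%. Only 3 (1.91%) joined different chromosomes, where 3.87% of all contacts did. The partner was itself a promoter fragment in 35 contacts (22.3%, Wilson interval 16.5 to 29.4%), against 9.59% of all contacts with each pair counted once. These came mostly from TNNI3 (13), TNNI1 (11) and TPM2 (6), while ACTC1 and LMOD2 had 0 and TPM1 had 1. Without TPM1 and ACTC1 the share was 39.5%. The 9.59% is not a like measure, since a pair of promoter fragments is a contact of both but enters it once. Counted from each promoter fragment, the 200587 contacts of all promoters become 219827, as 19240 pairs of promoter fragments enter from both sides. The share over all then lies above 9.59%, and the 22.3% is not shown to exceed that like share. No test was made.

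The genes fell into broad classes by number of contacts. TPM1 had 32, 29 and 27 contacts in replicates 1 to 3 and ACTC1 had 23, 34 and 28, and these ranges overlap. TNNI3 followed with 18, 16 and 20, below every replicate of TPM1 and ACTC1. TMOD1 had 9, 10 and 8 and TNNI1 6, 8 and 9, which overlap. LMOD2 had 5, 6 and 4, in reach of the lowest TNNI1 replicate. The lowest numbers were those of TNNT2 (4, 4 and 2), TNNC1 (3, 4 and 2) and TPM2 (4, 2 and 1), which could not be ordered beyond their spread. By the union of replicates ACTC1 stood above 94.7% of all promoter fragments, TPM1 above 93.6% and TNNI3 above 93.2%. TNNT2, the gene used as a purity marker, stood above 38.2%.

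**Figure D1:**
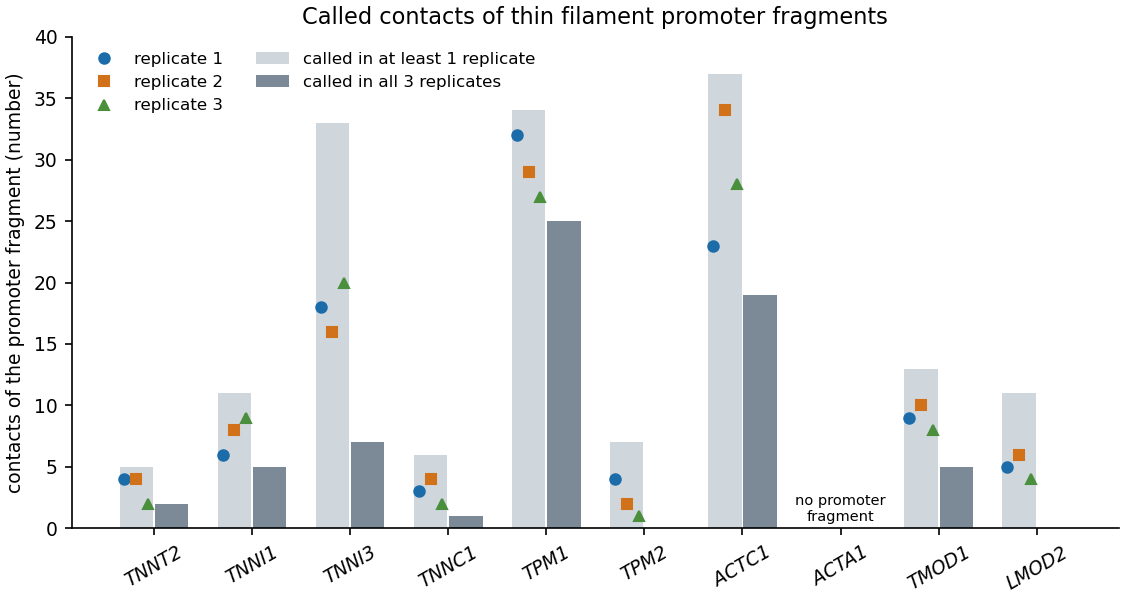
Number of called contacts (y axis) of the promoter fragment of each thin filament gene (x axis). Light bars give contacts called in at least 1 of 3 replicates, dark bars those called in all 3, and points the number in each replicate. ACTC1 (37) and TPM1 (34) have the tallest light bars, TPM1 the tallest dark bar (25), and TPM2 and LMOD2 have no dark bar. ACTA1 has no promoter fragment.

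TNNT2 encodes cardiac troponin T, which ties the troponin complex to tropomyosin. Its promoter fragment had 5 contacts, of which 2 were called in all 3 replicates. The strongest partner was chr1:201366622-201374522, 20.3 kb upstream, which carries the promoter of LAD1, a gene of an anchoring filament protein, and an exon of TNNI1. It scored 11.61, 11.3 and 9.97 in replicates 1 to 3 (10.96 ± 0.871, SD, n = 3). The TNNT2 fragment holds a LAD1 start as well, so contacts of TNNT2 and of LAD1 cannot be told apart on it. The next was a fragment of 214 bp, chr1:201386596-201386809, in an intron of TNNI1 and 36.4 kb away. It scored 10.16, 6.61 and 7.08 (7.95 ± 1.93), highest in replicate 1. Its sequence is shown as the shortest stable partner of TNNT2, on the plus strand with the HindIII ends in capitals.
TNNT2 partner, chr1:201386596-201386809: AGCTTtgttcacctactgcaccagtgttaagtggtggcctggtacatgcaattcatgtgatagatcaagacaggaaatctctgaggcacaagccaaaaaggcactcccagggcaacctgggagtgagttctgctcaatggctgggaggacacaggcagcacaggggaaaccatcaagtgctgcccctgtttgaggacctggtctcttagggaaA

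The remaining TNNT2 contacts were weaker. The promoter of CSRP1, a LIM domain protein gene, scored 6.65 in replicate 1 and 5.34 in replicate 2 and was not listed in replicate 3. It was also the promoter fragment that shared most partners with TNNT2, 3 of the 5 (60.0% of those of TNNT2 and 10.7% of those of CSRP1). That holds for the union alone, as in single replicates they shared 0, 0 and 1.

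TNNI1 encodes the slow skeletal troponin I, the isoform of the fetal heart, and lies beside TNNT2. All 11 partners of its fragment were themselves promoter fragments. This was the case for 111 of 11787 promoter fragments with at least 5 partners (0.942%). The promoter of CSRP1 scored 8.91, 12 and 11.15 (10.7 ± 1.60), that of PHLDA3, a gene induced by p53, 7.72, 13.54 and 8.66 (9.97 ± 3.12), and that of PKP1, a desmosomal plakophilin gene, 10.28, 7.48 and 9.32 (9.03 ± 1.42). Their replicate ranges overlap, so they have no order. The farthest partner called in all 3 replicates was the promoter of an unnamed noncoding gene within NAV1, chr1:201641930-201645189, 248.6 kb upstream, at 5.35, 10.05 and 7.1. The LAD1 promoter fragment was also called in all 3, at 6.77, 5.18 and 5.31.

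The TNNT2 and TNNI1 promoter fragments are 44.7 kb apart. No replicate listed a contact between them, nor did the merged calls. They shared 2 partners, the LAD1 and CSRP1 promoter fragments. LAD1 scored higher with TNNT2 in every replicate (9.97 to 11.61 against 5.18 to 6.77) and CSRP1 higher with TNNI1 (8.91 to 12 against at most 6.65). Neither pair of ranges overlaps. Since the TNNT2 fragment also holds a LAD1 start, its contact with the LAD1 promoter fragment cannot be assigned to TNNT2 alone. No contact between promoter fragments of any thin filament genes was listed. The other pairs on the same chromosome, TPM1 with ACTC1 and TPM2 with TMOD1, are 28246 and 64573 kb apart.

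**Figure D2:**
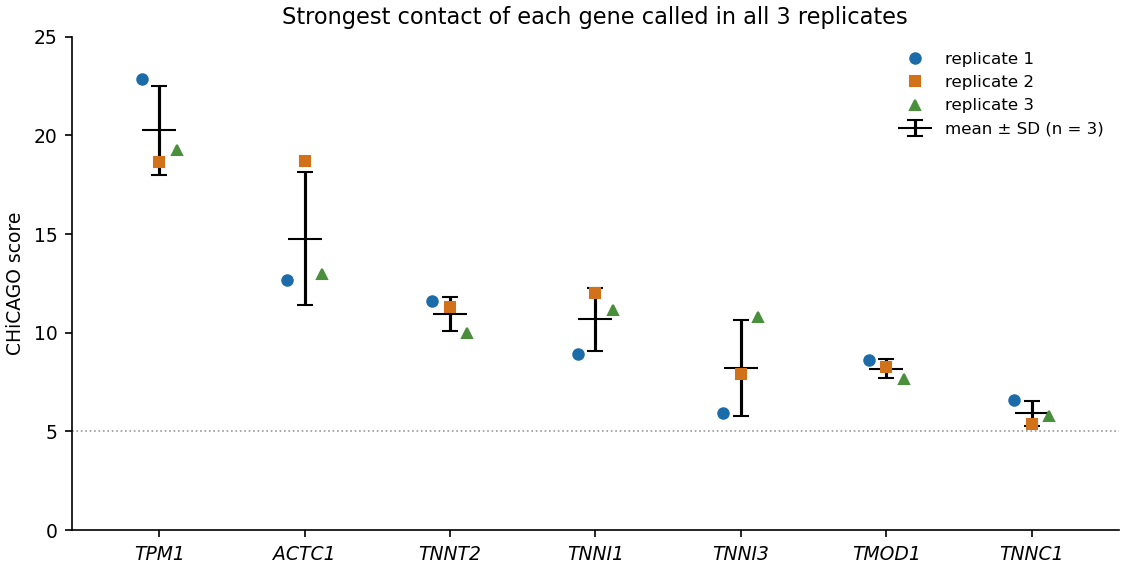
CHiCAGO score (y axis) of the strongest contact called in all 3 replicates for each of the 7 genes that had one (x axis), ordered by mean. Points are replicates, horizontal bars means, whiskers SD (n = 3), and the dotted line the lowest score listed, 5. The TPM1 contact (mean 20.3) lies above that of every other gene except for replicate 2 of ACTC1 (18.68), which reaches the lowest TPM1 replicate (18.67).

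TNNI3 encodes the adult cardiac troponin I, the inhibitory subunit that protein kinase A phosphorylates. Its fragment had 33 contacts, 7 in all 3 replicates, and 30 of them pointed upstream of the gene. A run of 17 partner fragments, chr19:55870284-56024395, lay 206 to 352 kb away over the genes from GARIN5B to SSC5D and held 6 of the 7 stable contacts. The strongest of the stable contacts, chr19:55936320-55937873 between UBE2S and SHISA7, scored 5.94, 7.89 and 10.8 (8.21 ± 2.45). An exon fragment of SSC5D, a scavenger receptor gene, chr19:56024127-56024395, was the farthest, at 352 kb, and scored 6.79, 8.29 and 7.07 (7.38 ± 0.798). The promoter of UBE2S, a ubiquitin-conjugating enzyme gene, scored 7.39, 8.1 and 6.06 (7.18 ± 1.04). These 3 could not be ordered. The other 3 contacts of TNNI3 joined it to fragments 15833 to 41657 kb away on chromosome 19, in 1 replicate each, with scores of 5.42 to 5.85.

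The fragment directly next to that of TNNI3, with no gap, carries the promoter of TNNT1, the slow skeletal troponin T gene. It shared 25 partners with TNNI3, which is 75.8% of the 33 partners of TNNI3 and 67.6% of the 37 of TNNT1. No other promoter fragment shared as many with TNNI3 in the union. In single replicates TNNI3 and TNNT1 shared 11, 12 and 12. The promoter fragment of BRSK1, 126 kb from that of TNNI3, shared 22 in the union (66.7%, and 34.9% of its own). In single replicates it shared 12, 8 and 11. Of the partners shared by TNNI3 and TNNT1, 5 were called in all 3 replicates for both genes. Mean scores were higher for TNNT1 at 15 shared partners and higher for TNNI3 at 10. At chr19:55922627-55925034 TNNT1 scored 9.89, 11.39 and 10.27, above 5.28, 8.28 and 6.37 for TNNI3, with no overlap. At the SSC5D exon fragment the ranges overlapped, at 6.75, 7.01 and 5.07 for TNNT1. TNNT1 is a paralogue outside the 10 genes and had 15 stable contacts.

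**Figure D3:**
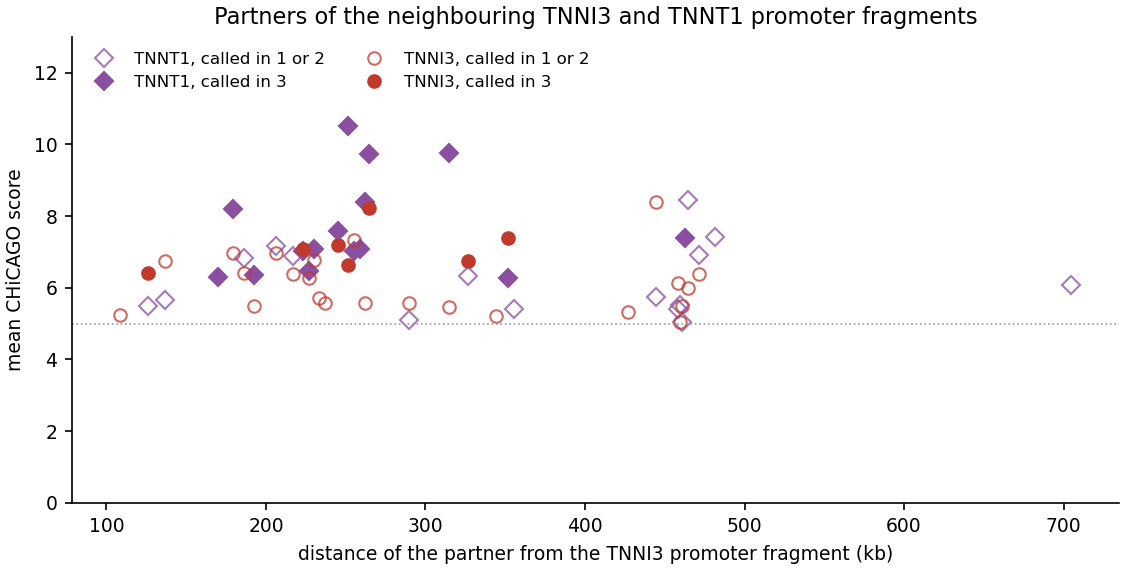
Mean CHiCAGO score over the replicates that listed the contact (y axis) of partners of the TNNI3 (circles) and TNNT1 (diamonds) promoter fragments, by distance from the TNNI3 fragment in kb (x axis), up to 1 Mb. Filled symbols are contacts called in all 3 replicates, open symbols in 1 or 2, and the dotted line is the lowest score listed. Partners of both genes gather between 206 and 352 kb, where the filled diamonds reach 10.5 and the filled circles 8.21.

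TNNC1, the gene of the calcium-binding subunit of slow and cardiac muscle, had 6 weak contacts. Only chr3:52729554-52732111, which holds a start of the glycosyltransferase gene GLT8D1 and is not itself a promoter fragment of the calls, was called in all 3 replicates. It lay 245 kb upstream and scored 6.61, 5.37 and 5.77 (5.92 ± 0.633). Another 4 contacts were called in 1 replicate each, and the highest of them scored 5.56. The fragment with the promoters of BAP1 and PHF7 shared 3 of the 6 partners in the union (50%, and 37.5% of its own), and 2, 1 and 0 in single replicates.

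TPM1 encodes alpha-tropomyosin, the main tropomyosin of the heart. Its fragment had the most contacts called in all 3 replicates, 25 of 34 (73.5%, Wilson interval 56.9 to 85.4%), and stood above 98.6% of promoter fragments in that number. All 33 partners on chromosome 15 lay upstream, 117 to 285 kb away, in TLN2 and between TLN2 and TPM1. TLN2 encodes talin 2, which links integrins to actin. A partner set on 1 side is no rarity, as 1060 of 2998 promoter fragments with at least 20 partners on their chromosome (35.4%) had one. The other contact went to STRIP2 on chromosome 7 and was called in replicate 2 alone, at 7.16.

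The strongest contact of any thin filament gene joined TPM1 to chr15:63076400-63079866, over exons of TLN2 and 256 kb away. It scored 22.84, 18.67 and 19.27 (20.3 ± 2.25, SD, n = 3). No other TPM1 partner came near it, the next highest single score being 13.62. The next by mean were chr15:63138633-63145871, between TLN2 and TPM1, with 11.08, 11.15 and 11.13 (11.1 ± 0.0361), and the promoter fragment of MIR190A, a microRNA gene inside TLN2, with 12.67, 9.71 and 10.22 (10.9 ± 1.58). The farthest stable partner, chr15:63049252-63051104, was 284 kb away at a TLN2 start and scored 7.31, 5.55 and 6.39.

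Most TPM1 partners fell into 3 runs of neighbouring fragments, where a gap of 1 fragment was allowed. Some lay outside these runs, among them the farthest stable partner. The largest, chr15:63065297-63151523, held 18 partners, 14 of them stable, with a median of mean scores of 8.02. The next, chr15:63154189-63200552, held 8 with 7 stable and a median of 8.25. The nearest, chr15:63214078-63218646, held 3 with 2 stable and a median of 5.82. None of the 34 partners contacted any other promoter fragment in any replicate, whereas 34.5% of all contacts were with such a partner.

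The fragment with the canonical TPM1 start, chr15:63334859-63337155, was not a promoter fragment of the calls, but appeared as a partner. The MIR190A promoter contacted it in all 3 replicates, with scores of 6.67, 6.36 and 6.27. These were below every score of the contact between MIR190A and the TPM1 promoter fragment, and the ranges do not overlap. The next TPM1 fragment with annotated starts, chr15:63337539-63353022, was listed with MIR190A in replicate 1 alone, at 5.41.

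**Figure D4:**
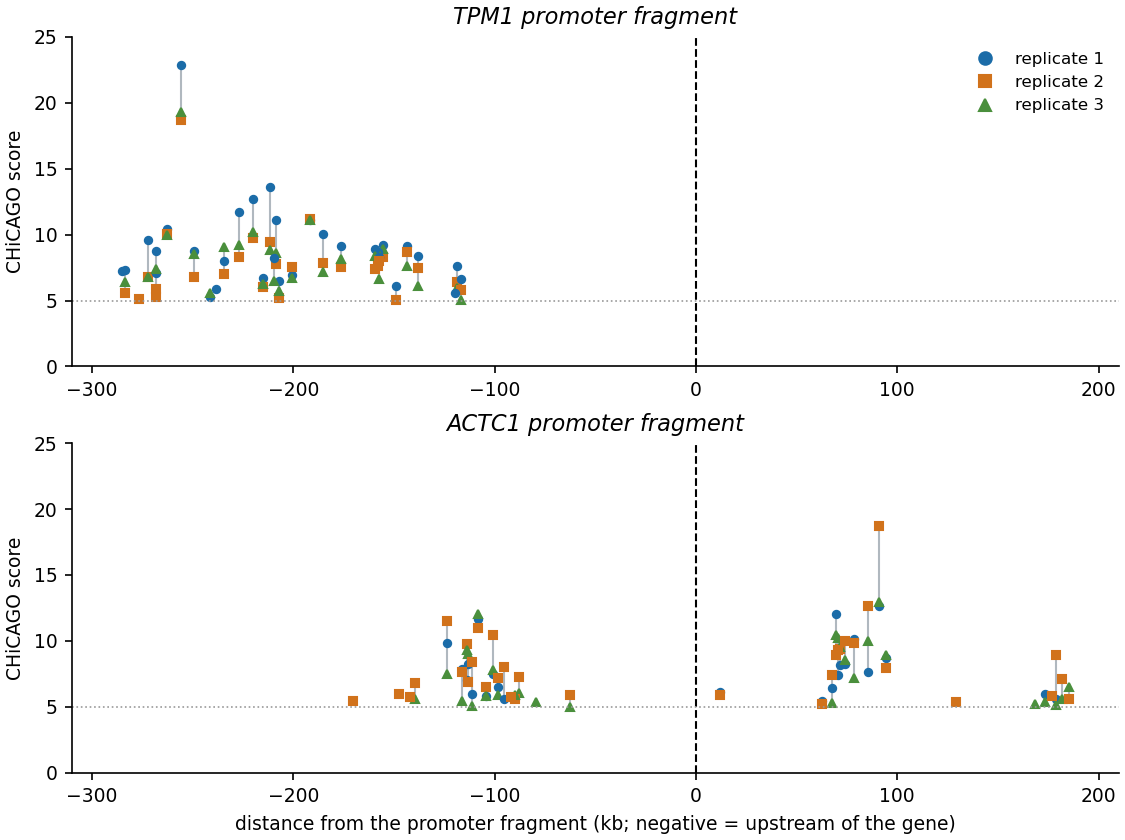
CHiCAGO scores (y axis) of same-chromosome contacts of the TPM1 (top) and ACTC1 (bottom) promoter fragments against distance from the fragment in kb (x axis; negative is upstream of the gene). Symbols are replicates, grey lines join the replicates of a contact, the dashed line is the promoter fragment and the dotted line the lowest score listed, 5. TPM1 partners all lie 117 to 285 kb upstream, and ACTC1 partners lie on both sides within 185 kb.

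TPM2 encodes beta-tropomyosin, the form of slow skeletal muscle. It had 7 contacts and none was called in more than 1 replicate. Its highest score was 8.62, in replicate 1, with a fragment of chromosome 17 that holds the promoters of DLG4 and ACADVL. Another 5 partners lay 572 to 623 kb downstream, at promoter fragments of genes from VCP to ATOSB, with scores of 5.05 to 6.09. Without replicate 1 its contacts fell to 3 of 7, and the merged calls held none. The promoter fragment of CCL27 shared 3 of the 7 TPM2 partners in the union (42.9%, and 75.0% of its own), as many as that of RUSC2. In single replicates the CCL27 fragment shared 1, 0 and 0.

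ACTC1 encodes cardiac alpha-actin, the main actin of the adult cardiomyocyte. It had 37 contacts, 19 in all 3 replicates (51.4%, Wilson interval 35.9 to 66.6%), with 19 upstream and 18 downstream. None of the partners was a promoter fragment. The strongest lay downstream in the gap between GOLGA8B and GJD2, the connexin 36 gene, at chr15:34995429-34999084 and 90.9 kb away. It scored 12.66, 18.68 and 12.98 (14.8 ± 3.39), highest in replicate 2. The second lay on the other side in AQR, a gene of a spliceosomal helicase, at chr15:35194823-35197918 and 108 kb away, with 11.68, 10.95 and 12.05 (11.6 ± 0.560). The next was chr15:35017724-35019095, again downstream, with 12.06, 8.95 and 10.47 (10.5 ± 1.56). The scores of these last overlap.

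The ACTC1 partners gathered in 2 main blocks. The downstream block, chr15:34992252-35025613, had 10 partners between 62.7 and 94.3 kb away, 9 of them stable, with a median of mean scores of 9.02. The block in AQR, chr15:35166199-35216395, had 14 partners between 79.5 and 124 kb away, 9 stable, with a median of 6.72. A smaller block farther downstream, chr15:34902345-34920626, had 6 partners with 1 stable, chr15:34909105-34909534, which was also the farthest stable partner at 179 kb and scored 5.56, 8.97 and 5.17. A fragment of only 184 bp in the downstream block, chr15:35017540-35017723, lies between larger stable partners and was called in all 3 replicates at 7.45, 9.35 and 10.19 (9.0 ± 1.40). It is shown as the shortest of the stable ACTC1 partners, on the plus strand with the HindIII ends in capitals. As its neighbours are stable too, it does not narrow the contact.
ACTC1 partner, chr15:35017540-35017723: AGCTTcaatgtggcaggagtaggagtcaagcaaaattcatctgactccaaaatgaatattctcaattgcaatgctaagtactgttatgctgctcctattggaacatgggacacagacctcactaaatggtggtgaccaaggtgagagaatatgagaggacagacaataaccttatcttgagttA

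GJD2, the nearest coding gene downstream, had 7 partners, and 6 of them were also partners of ACTC1 (85.7% of those of GJD2 and 16.2% of those of ACTC1). In single replicates 4, 0 and 2 were shared, and none was called in all 3 replicates for both genes. ACTC1 and GJD2 promoter fragments, 41.0 kb apart, were not listed with each other.

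ACTA1 encodes skeletal alpha-actin, which the fetal heart also uses. No fragment with a start of ACTA1 was listed as a promoter fragment in any replicate or in the merged calls, so no promoter contacts were counted for it. All 3 of its starts lie on the HindIII fragment chr1:229562492-229571968.

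TMOD1 encodes tropomodulin 1. Its short fragment had 13 contacts, 5 of them in all 3 replicates, on both sides of the gene. The strongest were fragments in introns of TSTD2, the gene that follows TMOD1. At chr9:100377028-100378387, 114 kb downstream, scores were 8.64, 8.25 and 7.68 (8.19 ± 0.483), and at chr9:100369661-100371824 they were 8.14, 7.8 and 7.36 (7.77 ± 0.391). Next was an intron fragment of the zinc finger gene ZNF782, chr9:99618924-99619388, 644 kb upstream, with 8.49, 6.62 and 6.22 (7.11 ± 1.21). This was the farthest contact of any of the 10 genes called in all 3 replicates. Another 4 partners lay in TMOD1 itself, 90.6 to 101 kb from the fragment, 2 of them stable. The promoter fragment of TDRD7 shared 5 of the 13 partners in the union (38.5%, and 20.8% of its own), and 4, 3 and 2 in single replicates.

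LMOD2 encodes leiomodin 2, needed for thin filaments of full length in the heart. Its fragment had 11 contacts, 4 of them in 2 replicates and none in all 3. The contact with the highest mean was in replicate 2 alone, at 8.22, with an exon fragment of the telomere protein gene POT1, chr7:124493019-124493182, which lies 1196 kb away. Nearby fragments in POT1 were listed with LMOD2 in replicates 1 and 3, one of them at 5.19 and 6.69. A run of 3 fragments at HYAL4, chr7:123508915-123512732, was 212 to 215 kb downstream. The first of these scored 5.54 in replicate 1 and 6.41 in replicate 2 and was not listed in replicate 3. Without replicate 2 the contacts of LMOD2 fell to 7 of 11. The fragment of the noncoding gene ASB15-AS1 shared 7 of the 11 partners in the union (63.6%, and 58.3% of its own), and 3, 3 and 2 in single replicates.

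**Figure D5:**
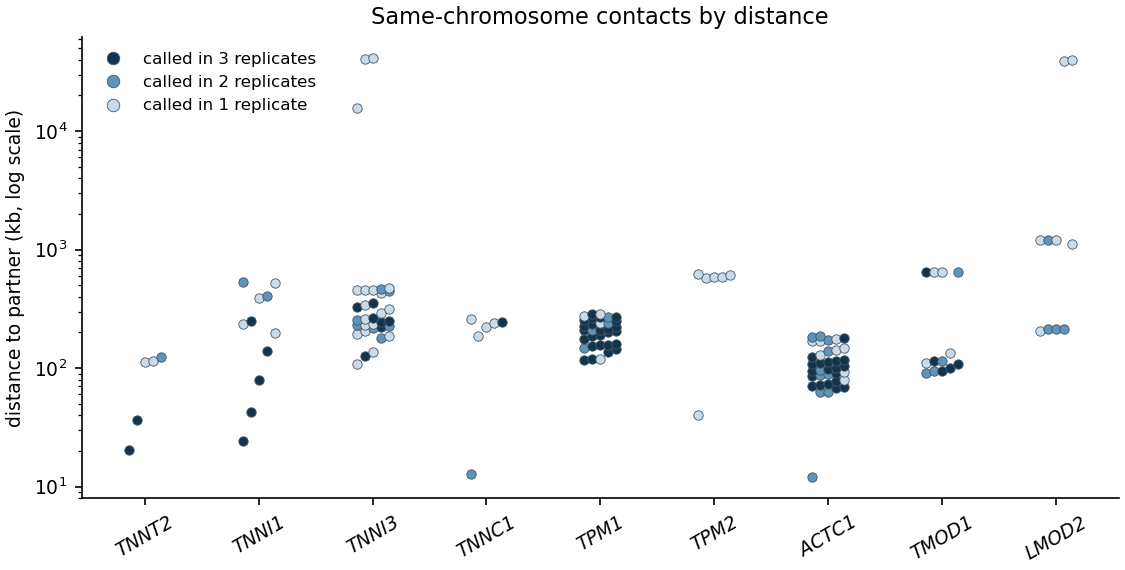
Distance in kb on a log axis (y axis) of each same-chromosome contact of the 9 promoter fragments (x axis). Each point is a partner, shaded by the number of replicates that called it, and points are spread sideways only for legibility. Dark points lie between 20.3 kb (TNNT2) and 644 kb (TMOD1), and the contacts at 15833 kb and farther, of TNNI3 and LMOD2, were each called in 1 replicate.

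The partners were described by annotation. Of the 157, 90 overlapped an exon of some gene, 36 lay over introns only and 31 between genes. These kinds were not counted over all promoter fragments, so the numbers show no trait of these genes. No other promoter was among the contacts of 83 partners, of which 34 were of TPM1 and 30 of ACTC1. Over all promoter fragments 34.5% of contacts had such a partner. Between genes lay 16 of the 37 partners of ACTC1 and 5 of the 34 of TPM1. Median partner length was 2790 bp. No contact between chromosomes was called in more than 1 replicate.

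Related sarcomere genes were counted in the same way. Of 20 paralogues and partners of the thin filament genes, 18 had a contact and 11 had one in all 3 replicates, where 51.9% of all promoter fragments had one. Of the 207 contacts of these genes 37.7% were called in all 3, against 24.0% of all contacts. ACTB, the cytoskeletal beta-actin, had 46 contacts with 32 stable, out of 78 stable contacts of the list. The 37.7% thus rested in large part on ACTB. ACTG1, the gamma-actin, had 27 with 9. ACTB and ACTG1 had 2 promoter fragments each and their counts are over both, so they are not counts of 1 promoter. TNNT1 had 37 with 15, while TPM4 and TMOD3 had 1 each with none stable. TNNT3 and CAPZA1 had no promoter fragment. All 7 cardiac thick filament genes had a contact and 5 had one in all 3, beside the same 51.9% of all promoter fragments. Of their 109 contacts 42.2% were stable, against 24.0% of all contacts. The median distance was 66.3 kb for the thick filament genes and 249.97 kb for the paralogues. MYH6, the atrial myosin heavy chain, had 32 contacts with 16 stable, MYH7, the ventricular one, 26 with 13, MYBPC3 26 with 14 and the ventricular light chain gene MYL2 1 with none. Contacts of 1 promoter are not independent of each other, and no test was made of these shares.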

How the data were processed

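Calls deposited for 3 hESC-CM replicates, singly and merged, were used unchanged. The authors mapped reads with HiCUP and called contacts with CHiCAGO at default parameters, on GRCh37, and the deposited unit is a CHiCAGO score, printed from 5 upwards. Tool versions are not given in the sources used here. A higher score reflects an excess over background and is no contact frequency, and scores depend on sequencing depth, which the files do not hold.

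Contacts were unordered pairs of fragments with identical coordinates, in the union of replicates. "Stable" means called in all 3. Genes came from GENCODE 44 lifted to GRCh37, the canonical start being that of the tagged canonical transcript, and 127138 of 127139 fragments matched a HindIII digest. Distances are between fragment midpoints. Means in fewer than 3 replicates are over those that listed the contact. Promoter windows were read from GRCh37. Python 3.11.15 with numpy 2.4.6, scipy 1.17.1 and matplotlib 3.10.9 was used, and a test on simulated calls sorted 100% of 1000 to the right number of replicates.

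The genes, the related lists and the motifs were chosen with earlier results of these data known. Named for each gene were up to 3 partners of highest mean score among those in all 3 replicates (else the 1 highest), the farthest such partner, contacts between members, and the promoter fragment sharing most partners (at least 3); fragments beyond this rule were chosen after their values were seen. Alternatives were scores of at least 7 and 10, each replicate left out, merged calls, column 1 only, protein-coding starts, same-chromosome contacts and matching within 5 kb. After seeing the data, TPM1 with ACTC1, or pairs of 2 promoter fragments, were also left out. 1 contact of the ACTA1 fragment is not reported here.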

Additional observations from a re-analysis of the deposited data

Results flagged for a closer look

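The merged calls, which were not used to count contacts, listed 130 contacts of thin filament promoter fragments. The union of replicates held 110 of these among its 157, and the rest of the 157 were not in the merged calls. The other 20 merged contacts were listed in no single replicate. Of these 11 belonged to TPM1, 5 to TMOD1, 3 to LMOD2 and 1 to TNNC1, and their scores ran from 5.10 to 7.86. With 1 condition there is no control level to set them against.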

How the results depend on the processing

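The 157 contacts became 72 at a score of at least 7, 25 at 10 and 86 without TPM1 and ACTC1. They were 130 in the merged calls and 131 to 144 with 1 replicate left out. The 40.8% called in every replicate became 16% at a score of at least 10, 58.6% with matching within 5 kb, 23.3% without TPM1 and ACTC1, and 50.7 to 57.4% when only 2 replicates had to share a contact. The median distance of 195 kb became 160 kb at a score of at least 7, 124 kb at 10, 178 kb in the merged calls and 244 kb without TPM1 and ACTC1. The 22.3% of partners that were promoter fragments became 15.3% at a score of at least 7, 24.0% at 10, 15.4% in the merged calls, 16.4% with the gene's fragment in column 1 only, 39.5% without TPM1 and ACTC1, and 19.9 to 22.1% with 1 replicate left out. The cause was not tested, except that fewer contacts or replicates enter by construction. Of 90 counts for the 9 genes with a promoter fragment under these alternatives 62 stayed within 1.5 times of their value and 28 did not. A TNNT2 to TNNI1 contact was not listed in any set, so no alternative gave it a value. No paired analysis was possible because there is 1 group. The score floor of 5 limits what can be seen: a weaker contact could not be told from none.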

Other observations

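For contacts called in all 3 replicates, the merged score divided by the mean replicate score had a median of 1.73 for TPM1 (25 contacts, 1.63 to 1.85) and 1.58 for TMOD1 (5 contacts), against 1.04 for ACTC1 (19 contacts, 0.989 to 1.13) and 1.38 over all promoter fragments. The medians were also below 1.38 for TNNT2 (1.20), TNNC1 (1.19), TNNI3 (1.12) and TNNI1 (1.09), on 1 to 7 contacts each. The promoter fragments of TPM1 and TMOD1 were the shortest of the 9, at 2203 and 285 bp. Over all promoter fragments the median ratio was 1.39, 1.40, 1.39 and 1.31 in classes of rising fragment length. The part of fragment length in the differences between the genes was not tested.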
